A study of Mus musculus with 6 samples.

Results

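The 33 genes described here serve protein folding and the unfolded protein response of the endoplasmic reticulum (ER). They were chosen by symbol, as a list of stress sensors, transcription factors, chaperones, disulfide isomerases and degradation genes. All 33 are among the 16179 genes of the table, and all 33 passed the filter on low values, a mean of at least 10 normalised reads over the 6 libraries. Libraries came from BODIPY-high and BODIPY-low microglia, with 3 libraries in each group. BODIPY is a dye for neutral lipid, so the groups are the lipid droplet-rich and the lipid droplet-low cells of the same tissue. Every library, in both groups, came from progranulin knockout mice (strain B6.129S4(FVB)-Grntm1.1Far/Mmja, male, 10 months old), and the hippocampi of 2 such mice were combined for a library. Cells were sorted as live, CD11b positive and low for CD45, and wild-type microglia were not analysed here. The labels do not say whether a BODIPY-high and a BODIPY-low library of the same number share mice, and every p-value below speaks only of the spread among these libraries, which may be technical.

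Secreted and membrane proteins fold in the ER with the help of chaperones, lectins and enzymes that form disulfide bonds, and proteins that fail to fold are sent out for degradation. When unfolded protein builds up, the sensors IRE1, PERK and ATF6 start the unfolded protein response. IRE1 (gene Ern1) splices the message of Xbp1, PERK (Eif2ak3) phosphorylates the initiation factor eIF2alpha and so favours translation of Atf4, and ATF6 is cut in the Golgi to free a transcription factor. Many of the chaperone, isomerase and degradation genes listed here are known targets of these factors. Microglia secrete complement, lipoprotein and lysosomal enzymes, and all of these pass through the ER.

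ATF6 with the factor NF-Y binds the ER stress response element (ERSE), written here as CCAAT, then any 9 bases, then CCACG. ERSE-II is ATTGG, any 1 base, then CCACG. Windows from 250 bases before to 50 bases after the start site (RefSeq, GRCm38.p6) were at hand for 29 of the 33 genes, but not for Atf6, Hyou1, Manf and Ppp1r15b. On either strand, ERSE was found in 8 of these 29 genes and in 0.119% of the 32851 windows of all genes. ERSE-II was found in 2 of the 29 and in 0.0365% of all windows. The core of the unfolded protein response element, TGACGTGG, was found in 0 of the 29 genes and in 0.676% of all windows. The C/EBP-ATF response element core TTGCATCA, bound by ATF4, was found in 2 of the 29 and in 0.895% of all windows. A match is a run of letters and not a shown binding site. Only these exact letters were searched, so a window without a match may still hold a variant of an element. The matches with 10 bases on each side are printed because they show which of the genes share such an exact match, and in what sequence. Capitals mark the motif, and letters run 5′ to 3′ along the gene's own strand, so that a motif on the other strand reads in reverse complement.
Calr ERSE, chr8:84847065-84847103, minus strand: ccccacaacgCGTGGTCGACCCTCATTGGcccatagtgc
Canx ERSE, chr11:50325790-50325828, minus strand: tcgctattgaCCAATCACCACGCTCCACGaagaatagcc
Creld2 ERSE, chr15:88819510-88819548, plus strand: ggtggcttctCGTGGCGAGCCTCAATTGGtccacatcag
Dnajc3 ERSE, chr14:118937817-118937855, plus strand: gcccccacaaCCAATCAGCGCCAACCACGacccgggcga
Hsp90b1 ERSE, chr10:86705523-86705561, minus strand: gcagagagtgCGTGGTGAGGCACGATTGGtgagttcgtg
Hsp90b1 ERSE, chr10:86705628-86705666, minus strand: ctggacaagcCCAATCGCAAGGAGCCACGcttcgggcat
Hspa5 ERSE, chr2:34772015-34772053, plus strand: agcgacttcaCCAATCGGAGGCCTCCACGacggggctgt
Pdia6 ERSE, chr12:17266481-17266519, plus strand: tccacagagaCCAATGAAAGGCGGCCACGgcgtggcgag
Syvn1 ERSE, chr19:6046522-6046560, plus strand: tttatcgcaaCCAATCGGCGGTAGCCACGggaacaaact
Dnajb11 ERSE-II, chr16:22857842-22857872, plus strand: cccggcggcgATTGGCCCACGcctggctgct
Herpud1 ERSE-II, chr8:94386367-94386397, plus strand: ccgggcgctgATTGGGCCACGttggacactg
Chac1 TTGCATCA, chr2:119351039-119351066, plus strand: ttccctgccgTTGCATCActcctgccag
Herpud1 TTGCATCA, chr8:94386307-94386334, plus strand: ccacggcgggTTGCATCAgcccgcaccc

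The chaperone BiP, encoded by Hspa5, is the standard readout of this element, and its whole 300-base window on the plus strand (GRCm38.p6, chr2:34771840-34772139) is given with its single ERSE match in capitals.
Hspa5 window: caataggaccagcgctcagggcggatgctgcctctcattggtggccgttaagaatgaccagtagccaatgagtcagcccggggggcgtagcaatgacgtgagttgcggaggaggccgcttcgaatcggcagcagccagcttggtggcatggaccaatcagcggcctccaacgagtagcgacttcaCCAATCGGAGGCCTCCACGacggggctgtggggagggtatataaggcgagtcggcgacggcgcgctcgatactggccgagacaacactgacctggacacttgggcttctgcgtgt

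Sequencing depth ranged from 24982215 to 34899425 recovered reads. Grn, the targeted gene, had between 468 and 1614 normalised reads in BODIPY-high libraries and between 416 and 990.1 in BODIPY-low libraries, and which exons these reads cover was not analysed here. The labelled cell type was checked with 11 microglia markers, Csf1r among them, which held 5.52% to 5.82% of reads in BODIPY-high and 6.25% to 6.87% in BODIPY-low libraries. All 10 choroid plexus and ependyma markers, led by Enpp2 and Ttr, were higher in BODIPY-high libraries, with 0.536% to 0.957% of reads in BODIPY-high and 0.0136% to 0.0654% in BODIPY-low libraries. Of 10 neutrophil markers, led by Ngp and Ltf, 9 were lower, with 0.000748% to 0.00851% of reads in BODIPY-high and 0.113% to 0.292% in BODIPY-low libraries. Of 6 tested monocyte markers, led by Chil3 and F13a1, 3 were lower. F13a1, which is also in the border macrophage list, was not called (log2 fold change 0.55, limma adjusted p = 0.213). Plasma and B cells, rich in ER, were represented by 5 tested markers led by Cd79b and Tnfrsf17, of which limma, edgeR and DESeq2 each called 0 (1 higher and 0 lower at an unadjusted limma p under 0.05), and the list held 0.00243% to 0.00349% of reads in BODIPY-high and 0.00297% to 0.00390% in BODIPY-low libraries. Of 6 tested border macrophage markers limma and edgeR called 1 higher and DESeq2 2 (4 higher at an unadjusted limma p under 0.05). The leading Mrc1 and F13a1 were not called by limma. Of 4 tested neuron markers (Syt1 and Snap25 leading) limma called 1 higher, and edgeR and DESeq2 2 each. Of 6 tested markers each of astrocytes (Slc1a3 and Aldh1l1) and endothelium (Pecam1 and Slco1a4), all 3 tools called 1 higher. Median log2 fold changes were 0.82 for border macrophages, 1.93 for neurons, 0.94 for astrocytes and 0.059 for endothelium. For oligodendrocytes (Cnp and Mbp leading) limma called 0 of 5, edgeR 1 and DESeq2 2, all higher (3 at an unadjusted limma p under 0.05). Fewer cells of a type and less RNA per cell cannot be told apart in such bulk libraries, and what these other cells add to the values below was not tested.

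Of the 33 genes, limma called 0 higher in BODIPY-high libraries and 2 lower. These were Ppp1r15b and Atf6. By limma, 0 of the 33 were higher at an adjusted p below 0.05 (0 at an unadjusted p under 0.05), against 9.79% of all 12821 tested genes. The 2 lower genes are 6.06% of the 33, against 3.52% of all tested genes and thus near the background. Among the 4646 genes whose mean reached 1000 normalised reads, as it did for 27 of the 33, limma called 6.69% higher and 5.57% lower. By edgeR 0 of the 33 were higher and 3 lower, against 9.48% and 3.33% of all tested genes. By DESeq2 0 were higher and 5 lower, against 11.4% and 5.23%. As shares of the 33, these counts of lower genes lie further above the background than the limma count. The median log2 fold change, always BODIPY-high minus BODIPY-low on the log2(value + 1) scale, was -0.12 over the 33 genes and -0.015 over all tested genes. With a library left out, the median over the 33 ranged from -0.15 without BODIPY-high replicate 1 to -0.069 without BODIPY-low replicate 1. A fold change below 0 was seen in 26 of the 33 (78.8%), against 51.9% of all tested genes. Where the mean reached 1000 normalised reads it was seen in 23 of 27 of the set (85.2%) and in 56.0% of 4646 genes. The 11 microglia markers had a median log2 fold change of -0.21 in the same libraries, and 3 of them were lower.

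The 33 genes together held 1.28%, 1.14% and 1.12% of all reads in BODIPY-high libraries 1, 2 and 3, against 1.38%, 1.25% and 1.21% in BODIPY-low libraries 1, 2 and 3. These ranges overlapped (p = 0.3 by an exact permutation test, two-sided, which with 3 against 3 cannot go below 0.1). The 9 Hsp70 and Hsp90 chaperones and luminal proteins made up the largest part, with 0.369% ± 0.0592 in BODIPY-high and 0.394% ± 0.0583 in BODIPY-low libraries (SD, n = 3 each). The 4 disulfide isomerases followed with 0.310% ± 0.00981 in BODIPY-high and 0.327% ± 0.0159 in BODIPY-low libraries.

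**Figure D1:**
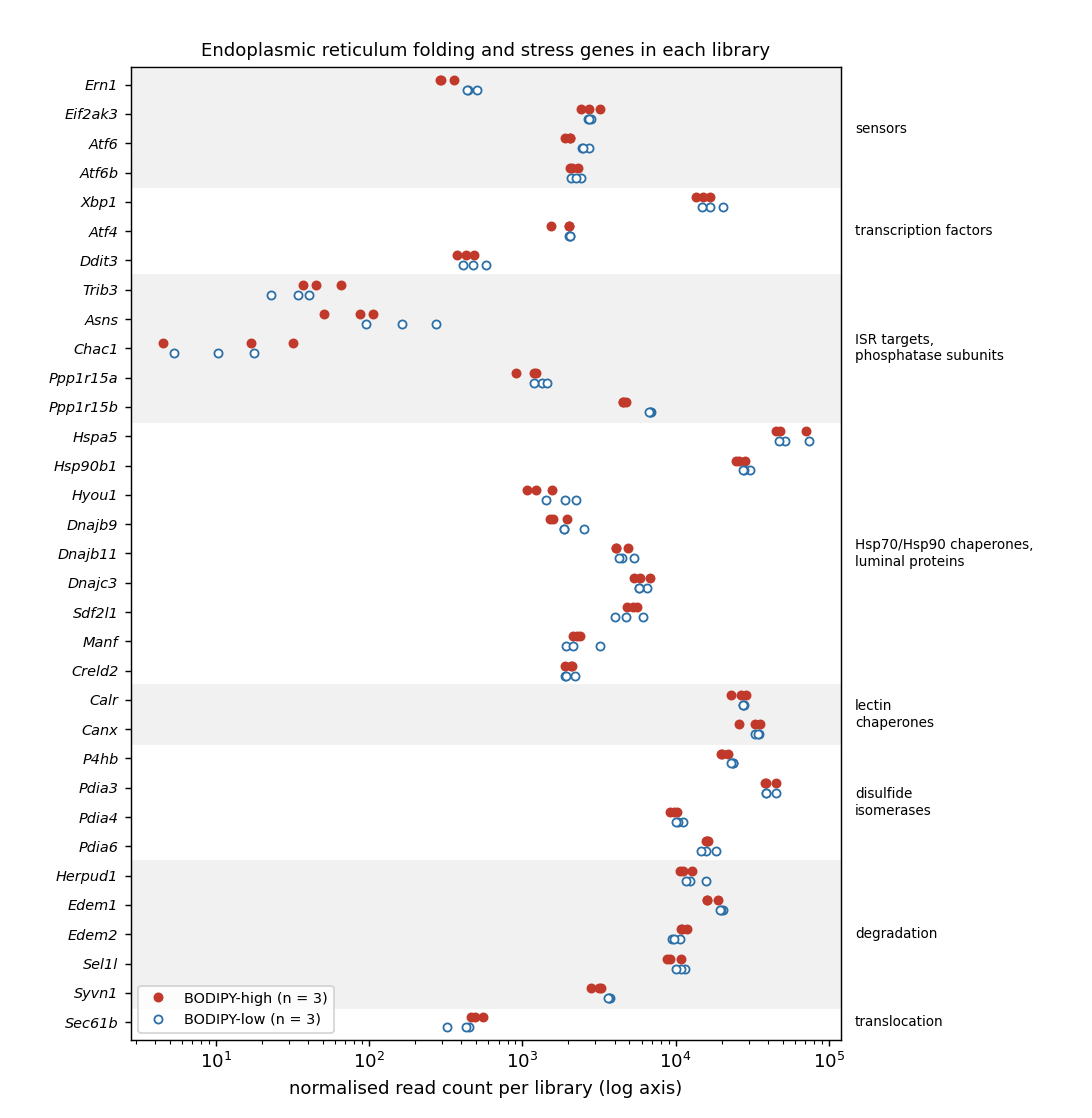
Normalised read counts (log axis) of the 33 genes, a row per gene with the 3 BODIPY-high libraries as filled points above the 3 BODIPY-low libraries as open points, ordered by role. The points of most genes overlap, and those of Ppp1r15b stand apart, between 4522 and 4743 in BODIPY-high against 6732 and 6903 in BODIPY-low libraries.

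Of the sensors, Atf6 fell, Ern1 missed the threshold, and Eif2ak3 and Atf6b had log2 fold changes close to 0. Atf6 had 1903, 2036 and 2036 normalised reads in BODIPY-high libraries 1, 2 and 3, against 2439, 2705 and 2475 in BODIPY-low libraries 1, 2 and 3. All BODIPY-high values lay below all BODIPY-low values, as for 13.4% of all tested genes. The log2 fold change of Atf6 (chromosome 1) was -0.35 (SE 0.095, limma adjusted p = 0.0332). That call held without BODIPY-low replicate 1 alone and was lost without any other single library (limma adjusted p between 0.0530 and 0.155). Atf6b, the related sensor that also frees a transcription factor, had 2044, 2300.4 and 2119 normalised reads in BODIPY-high and 2084, 2428 and 2248 in BODIPY-low libraries 1, 2 and 3. Its groups overlapped, and its log2 fold change was -0.064 (limma adjusted p = 0.740, 95% interval -0.29 to 0.16).

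Ern1, the sensor kinase and RNase of the Xbp1 branch, had 290.2, 292 and 359 normalised reads in BODIPY-high libraries 1, 2 and 3, against 440.2, 433 and 503 in BODIPY-low libraries 1, 2 and 3. The groups did not overlap, and the BODIPY-high values were the lower ones. The log2 fold change was -0.55 (SE 0.17), with adjusted p = 0.0540 by limma, 0.0440 by edgeR and 0.0343 by DESeq2. Without 1 library the limma adjusted p ranged from 0.0634 to 0.211. Eif2ak3, the PERK kinase, had 3235, 2420.4 and 2716 normalised reads in BODIPY-high and 2801, 2694 and 2710.5 in BODIPY-low libraries 1, 2 and 3. The BODIPY-low values lay inside the range of the BODIPY-high ones, and the 95% interval of its log2 fold change ran from -0.23 to 0.27. On the other strand Gm43292 shares 8.05% of its exon bases.

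The transcription factors of the response were not called by limma, edgeR or DESeq2. Xbp1 had 16767, 15158 and 13539 normalised reads in BODIPY-high libraries 1, 2 and 3, against 20448, 16711 and 14865 in BODIPY-low libraries 1, 2 and 3. Library 1 was the highest of its group in both, and the groups overlapped (log2 fold change -0.19, SE 0.12, limma adjusted p = 0.360). These counts do not part spliced from unspliced Xbp1 message. Atf4, the translated target of PERK signalling, had 1545, 2018 and 2007 normalised reads in BODIPY-high libraries and 2022, 2032 and 2039 in BODIPY-low libraries 1, 2 and 3. The highest BODIPY-high value lay just under the lowest BODIPY-low value, and BODIPY-high library 1 stood below all the others (log2 fold change -0.14, limma adjusted p = 0.503). Ddit3, which encodes the death-linked factor CHOP, averaged 427 ± 55.3 normalised reads in BODIPY-high and 488 ± 83.3 in BODIPY-low libraries (SD, n = 3 each). Its log2 fold change was -0.18 (limma adjusted p = 0.563), and 3.97% of its exon bases also lie in Mars on the other strand, where unstranded reads cannot be parted.

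The gene of the set with the smallest p-value belongs to the integrated stress response. Ppp1r15b, which encodes the constitutive subunit that directs protein phosphatase 1 to eIF2alpha, had 4743, 4537 and 4522 normalised reads in BODIPY-high libraries 1, 2 and 3, against 6903, 6805 and 6732 in BODIPY-low libraries 1, 2 and 3. Every BODIPY-high value lay below every BODIPY-low value, with little spread inside either group. The log2 fold change was -0.57 (SE 0.078, limma adjusted p = 8.75e-04, 95% interval -0.74 to -0.39), and with any single library left out the limma adjusted p stayed between 0.00245 and 0.00835. The gene (chromosome 1, 133131143 to 133139783 on GRCm38) shares 11.4% of its exon bases with Gm26616 on the other strand. Ppp1r15a, the stress-induced subunit of the same phosphatase known as GADD34, had 907, 1199 and 1219 in BODIPY-high and 1336, 1446 and 1189.6 in BODIPY-low libraries 1, 2 and 3. Its groups overlapped (log2 fold change -0.26, limma adjusted p = 0.265). The share of immediate early and heat shock genes, a list that marks handling of cells and is led by Jun and Junb, was 0.343% to 0.457% of reads in BODIPY-high and 0.451% to 0.646% in BODIPY-low libraries. Of its 18 genes limma and edgeR each called 1 higher and 1 lower, and DESeq2 1 higher and 4 lower. Their median log2 fold change was -0.32, with 2 higher and 4 lower at an unadjusted limma p under 0.05. The part of these genes in the values of Ppp1r15a and Ppp1r15b was not tested.

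The ATF4 targets Asns, Trib3 and Chac1 had few reads and varied between libraries of a group. Asns, the asparagine synthetase, had 106, 51.0 and 87.4 normalised reads in BODIPY-high libraries 1, 2 and 3, against 165, 94.8 and 274 in BODIPY-low libraries 1, 2 and 3. BODIPY-low library 3 was the highest and BODIPY-high library 2 the lowest, and the groups overlapped through BODIPY-low library 2. Its log2 fold change was -1.05 (SE 0.41, limma adjusted p = 0.123), which ranged from -0.67 without BODIPY-low replicate 3 (limma adjusted p = 0.422) to -1.43 without BODIPY-low replicate 2 (limma adjusted p = 0.0498). Trib3, a pseudokinase, had 36.7, 45.3 and 65.9 normalised reads in BODIPY-high and 22.9, 40.5 and 34.3 in BODIPY-low libraries 1, 2 and 3. Chac1, which breaks down glutathione, had 17, 4.53 and 31.8 in BODIPY-high and 10.3, 5.33 and 17.6 in BODIPY-low libraries 1, 2 and 3. Both overlapped, and the 95% intervals of their log2 fold changes were wide, at -0.36 to 1.52 and -1.36 to 2.22. Chac1 carries the TTGCATCA match printed above.

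**Figure D2:**
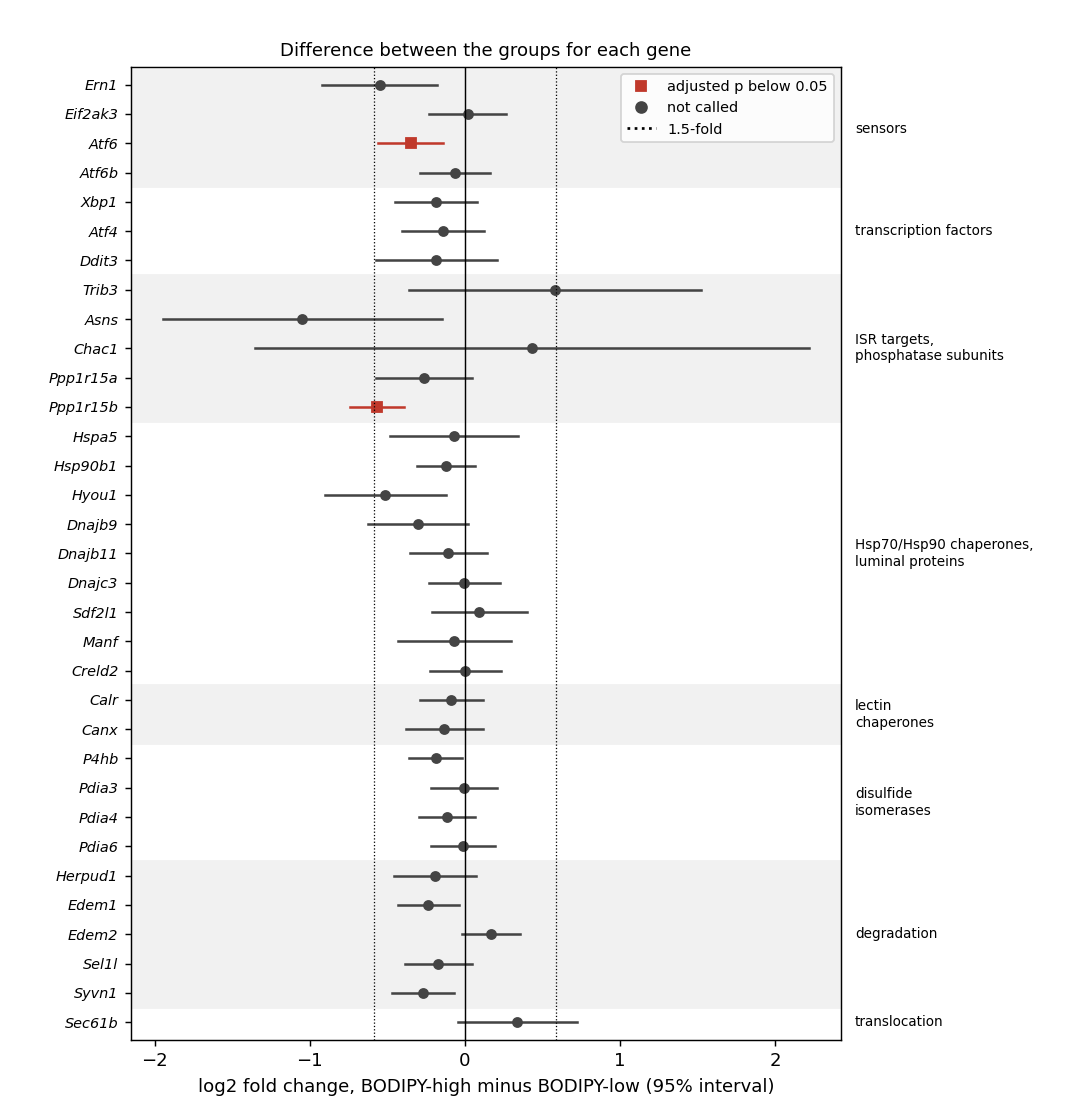
Log2 fold change (BODIPY-high minus BODIPY-low, limma) of the 33 genes with its 95% interval, ordered by role, with dotted lines at 1.5-fold. Squares mark the 2 called genes, Atf6 at -0.35 and Ppp1r15b at -0.57, and the widest intervals belong to Chac1, Trib3 and Asns.

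Of the chaperones and their partners limma and edgeR called 0, while DESeq2 called 1, Hyou1, lower (0 higher and 1 lower at an unadjusted limma p under 0.05). BiP is the Hsp70 of the ER lumen, and Hspa5 had 71393, 45192 and 48143 normalised reads in BODIPY-high libraries 1, 2 and 3, against 73833, 51646 and 47219 in BODIPY-low libraries 1, 2 and 3. Library 1 was by far the highest of each group, and the remaining values overlapped. The log2 fold change of Hspa5 was -0.071 with a 95% interval of -0.48 to 0.34 (limma adjusted p = 0.853). Hsp90b1, the ER form of Hsp90, averaged 26384 ± 1923 normalised reads in BODIPY-high and 28669 ± 1598 in BODIPY-low libraries (SD, n = 3 each, log2 fold change -0.12, limma adjusted p = 0.401). Both groups of Hsp90b1 overlapped, and 10.3% of its exon bases are shared with 1810014B01Rik on the other strand.

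Hyou1, the large Hsp70 relative that exchanges nucleotide on BiP, had another order of libraries than the rest of this group. It had 1075, 1559.6 and 1226 normalised reads in BODIPY-high libraries 1, 2 and 3, against 1419, 1884 and 2234 in BODIPY-low libraries 1, 2 and 3. Library 1 was the lowest of its group in both, and BODIPY-high library 2 overlapped BODIPY-low library 1. Its log2 fold change was -0.51 (SE 0.18), with adjusted p = 0.0861 by limma, and DESeq2 gave 0.0305. Without BODIPY-high replicate 2 or BODIPY-low replicate 1 it passed (limma adjusted p = 0.0386 and 0.0218).

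None of the co-chaperones and stress-induced luminal proteins was called by limma, edgeR or DESeq2. Dnajb9, an IRE1 target that binds BiP and IRE1, had the most negative value of them, with 1688 ± 239 normalised reads in BODIPY-high and 2093 ± 387 in BODIPY-low libraries (SD, n = 3 each, log2 fold change -0.30, limma adjusted p = 0.210). Dnajb11, a J protein of the lumen, averaged 4373 ± 481 in BODIPY-high and 4712 ± 575 in BODIPY-low libraries. Dnajc3, also known as p58IPK, averaged 6018 ± 757 in BODIPY-high and 6009 ± 408 in BODIPY-low libraries. These 3 genes of J-domain proteins overlapped between groups, and the 95% interval of the log2 fold change of Dnajc3 ran from -0.23 to 0.23. Sdf2l1, which works with the J proteins, averaged 5220.1 ± 390.1 normalised reads in BODIPY-high and 4966 ± 1099 in BODIPY-low libraries. Manf, a secreted stress-induced protein, averaged 2263 ± 129 in BODIPY-high and 2430.3 ± 694 in BODIPY-low libraries. Creld2, another stress-induced luminal protein, averaged 2019 ± 116 in BODIPY-high and 2020.2 ± 171 in BODIPY-low libraries. The larger BODIPY-low spread of Sdf2l1 and Manf came from library 1, at 6169 and 3222, and Manf shares 4.14% of its exon bases with Dcaf1 on the other strand.

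The lectin chaperones hold glycoproteins until they fold. Calr, which encodes calreticulin, had 22934, 28823 and 26655 normalised reads in BODIPY-high libraries 1, 2 and 3, against 28074, 27528 and 27425 in BODIPY-low libraries 1, 2 and 3. Canx, which encodes the membrane-bound calnexin, had 35744, 33221 and 25972 in BODIPY-high and 33082, 35303 and 34758 in BODIPY-low libraries 1, 2 and 3. Each had a single BODIPY-high library below the rest, library 1 for Calr and library 3 for Canx. Without that library the log2 fold changes were 0.0023 and 0.0039, against -0.089 and -0.13 with all libraries (limma adjusted p = 0.591 and 0.499). The ratio of Calr to Canx reads ranged from 0.642 to 1.03 in BODIPY-high and from 0.780 to 0.849 in BODIPY-low libraries.

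None of the disulfide isomerases was called by limma, edgeR or DESeq2. P4hb, the classic protein disulfide isomerase, had 19659, 21959 and 20229 normalised reads in BODIPY-high libraries 1, 2 and 3, against 23691, 23739 and 22906 in BODIPY-low libraries 1, 2 and 3. The groups did not overlap, yet the log2 fold change was -0.19 (SE 0.077) and did not pass (limma adjusted p = 0.147, 0.0345 unadjusted). Pdia3, the partner of calreticulin and calnexin, averaged 40968 ± 3973 in BODIPY-high and 41162 ± 3515 in BODIPY-low libraries, with a 95% interval of the log2 fold change of -0.22 to 0.20. Pdia4 averaged 9728 ± 497 in BODIPY-high and 10520.2 ± 569.6 in BODIPY-low libraries, and Pdia6, which also acts on IRE1, averaged 16082 ± 226 in BODIPY-high and 16265 ± 1967 in BODIPY-low libraries (SD, n = 3 each). All 3 overlapped between groups.

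Of the 5 degradation genes limma and edgeR called 0, and DESeq2 called 1, Syvn1, lower (0 higher and 2 lower at an unadjusted limma p under 0.05). Edem1 and Edem2 had fold changes of opposite sign. Both encode proteins that take mannose-trimmed glycoproteins towards degradation. Edem1 had 19017, 16062 and 15921 normalised reads in BODIPY-high libraries 1, 2 and 3, against 20546, 19916 and 19389 in BODIPY-low libraries 1, 2 and 3. Edem2 had 11915, 10949 and 10781 in BODIPY-high and 10768, 9439 and 9732 in BODIPY-low libraries 1, 2 and 3. The BODIPY-high values of Edem1 all lay below, and those of Edem2 all above, the BODIPY-low values. The log2 fold changes were -0.24 for Edem1 and 0.17 for Edem2 (limma adjusted p = 0.111 and 0.232). Edem1 passed without BODIPY-high replicate 1 (limma adjusted p = 0.0287). Within each library, Edem1 had 1.6, 1.47 and 1.48 times the reads of Edem2 in BODIPY-high libraries 1, 2 and 3, and 1.91, 2.11 and 1.99 times in BODIPY-low libraries 1, 2 and 3. This log2 ratio differed by -0.40 between the groups (p = 0.1 by the exact permutation test, its lower limit here, and 0.2 after Benjamini-Hochberg adjustment over 4 ratios). Because both genes already separate the groups, in opposite directions, the ratio had to separate them too. Its p-value was thus fixed by the values above and is no further support.

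The same kind of ratio was taken for Atf6 over Atf6b, Ppp1r15b over Ppp1r15a and Calr over Canx, and all 4 pairs were chosen after the values were seen. Atf6 had 0.931, 0.885 and 0.961 times the reads of Atf6b in BODIPY-high libraries 1, 2 and 3, against 1.17, 1.11 and 1.10 times in BODIPY-low libraries 1, 2 and 3. Here too the groups did not overlap (difference of the log2 ratio -0.29, exact permutation p = 0.1, adjusted 0.2). Atf6 alone already separates the groups, so this ratio is no further support either. Adjustment over the 4 ratios does not correct for the choice of pairs. The log2 ratios of Ppp1r15b to Ppp1r15a and of Calr to Canx overlapped (exact permutation p = 0.3 and 0.9, adjusted 0.4 and 0.9).

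Syvn1 encodes the ubiquitin ligase HRD1 and Sel1l its adaptor. Syvn1 had 2805, 3255 and 3141 normalised reads in BODIPY-high libraries 1, 2 and 3, against 3733, 3688 and 3645 in BODIPY-low libraries 1, 2 and 3. The groups did not overlap, and BODIPY-high was lower (log2 fold change -0.27, SE 0.091, adjusted p = 0.0796 by limma and 0.0470 by DESeq2). Sel1l averaged 9592 ± 1085 in BODIPY-high and 10782 ± 713 in BODIPY-low libraries (SD, n = 3 each, log2 fold change -0.17). Herpud1, a scaffold of the same complex, averaged 11576 ± 1105 in BODIPY-high and 13305 ± 2293 in BODIPY-low libraries, and its groups overlapped. Sec61b, a small subunit of the channel through which proteins enter the ER, had 461, 494 and 551 in BODIPY-high and 449, 324 and 427 in BODIPY-low libraries 1, 2 and 3. It was with Edem2 the other gene whose BODIPY-high values all lay above, and its log2 fold change of 0.34 did not pass (limma adjusted p = 0.244).

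**Figure D3:**
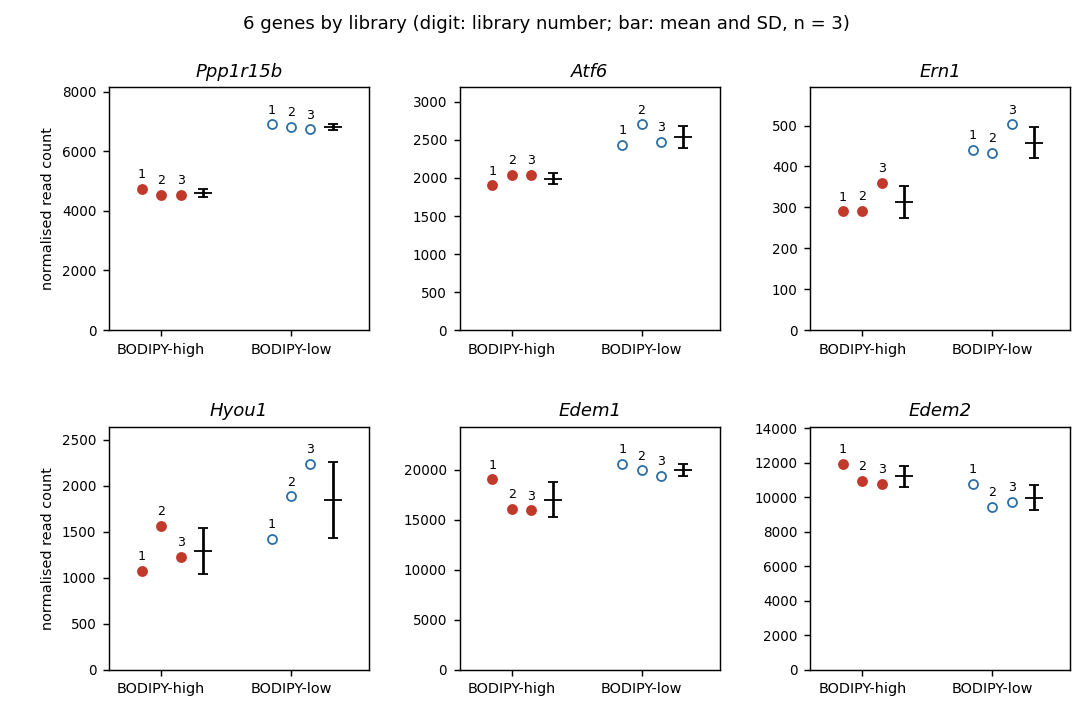
Normalised read counts of 6 genes by library, BODIPY-high left of BODIPY-low, on axes that start at 0; digits give the library number and the bar the mean and SD (n = 3). Limma called Ppp1r15b and Atf6; the groups of Ern1, Edem1 and Edem2 do not overlap but were not called by limma, while edgeR and DESeq2 called Ern1, and in Hyou1 library 1 is the lowest of each group.

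In all, 7 of the 33 genes had every BODIPY-high value below every BODIPY-low value, against 13.4% of all tested genes, and 2 had every value above, against 18.0%. At an unadjusted limma p under 0.05, 8 genes were lower (24.2% of the 33, against 11.0% of all tested genes). Besides Atf6 and Ppp1r15b these were Ern1, Asns, Hyou1, P4hb, Edem1 and Syvn1. The data limit how large an uncalled change could be. For 25 of the 33 genes the 95% interval of the fold change lay wholly within 1.5-fold either way, against 44.9% of all tested genes. Where the mean reached 1000 normalised reads this held for 24 of 27 of the set and for 81.1% of 4646 genes. The 8 exceptions were Ern1, Asns, Trib3, Chac1, Ppp1r15b, Hyou1, Dnajb9 and Sec61b.

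Levels spanned several orders of magnitude. Per kilobase of exon, Pdia3 and Hspa5 stood at the top, with 13051 and 12984 normalised reads in BODIPY-high and 13113 and 13612 in BODIPY-low libraries. Calr followed with 9075 in BODIPY-high and 9610 in BODIPY-low libraries, then P4hb with 7206 in BODIPY-high and 8195 in BODIPY-low libraries. The spread of Hspa5 between libraries of a group exceeds its distance from Pdia3, so these neighbours do not differ beyond their spread. The sensors lay far lower, with 782 for Atf6b, 463 for Eif2ak3, 216 for Atf6 and 38.4 for Ern1 in BODIPY-high, against 817 for Atf6b, 454 for Eif2ak3, 275 for Atf6 and 56.1 for Ern1 in BODIPY-low libraries. Trib3 and Chac1 were the lowest of the 33 in both groups, with 23.2 and 10.8 in BODIPY-high and 15.3 and 6.77 in BODIPY-low libraries. Asns, at 29.8 in BODIPY-high and 65.0 in BODIPY-low libraries, lay below Ern1 in BODIPY-high and above it in BODIPY-low libraries.

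Many of the genes, chaperones among them, had their highest value in library 1 of both groups. In 19 of the 33 genes (57.6%) library 1 was the highest of its group among both the BODIPY-high and the BODIPY-low libraries, against 16.2% of all tested genes and 22.0% of the 4646 genes whose mean reached 1000 normalised reads. Library 2 was the highest in both groups for 3 of the 33 and library 3 for 2, against 9.70% and 12.2% of all tested genes. This count was made after the values were seen, and no test was run on it. The 19 genes include 8 of the 9 Hsp70 and Hsp90 chaperones and luminal proteins, all but Hyou1, and 4 of the 5 degradation genes, all but Syvn1. Hspa5 in library 1 was 1.53 times the mean of libraries 2 and 3 among the BODIPY-high and 1.49 times among the BODIPY-low libraries. That ratio was 1.17 in BODIPY-high and 1.33 in BODIPY-low libraries for Herpud1, and 1.26 in BODIPY-high and 1.36 in BODIPY-low libraries for Dnajb9. In 5 genes, Atf4, Atf6, Atf6b, Trib3 and Hyou1, library 1 was the lowest of both groups. For Atf4 the BODIPY-low values ran only from 2022 to 2039. How many of all tested genes have library 1 lowest in both groups was not counted.

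**Figure D4:**
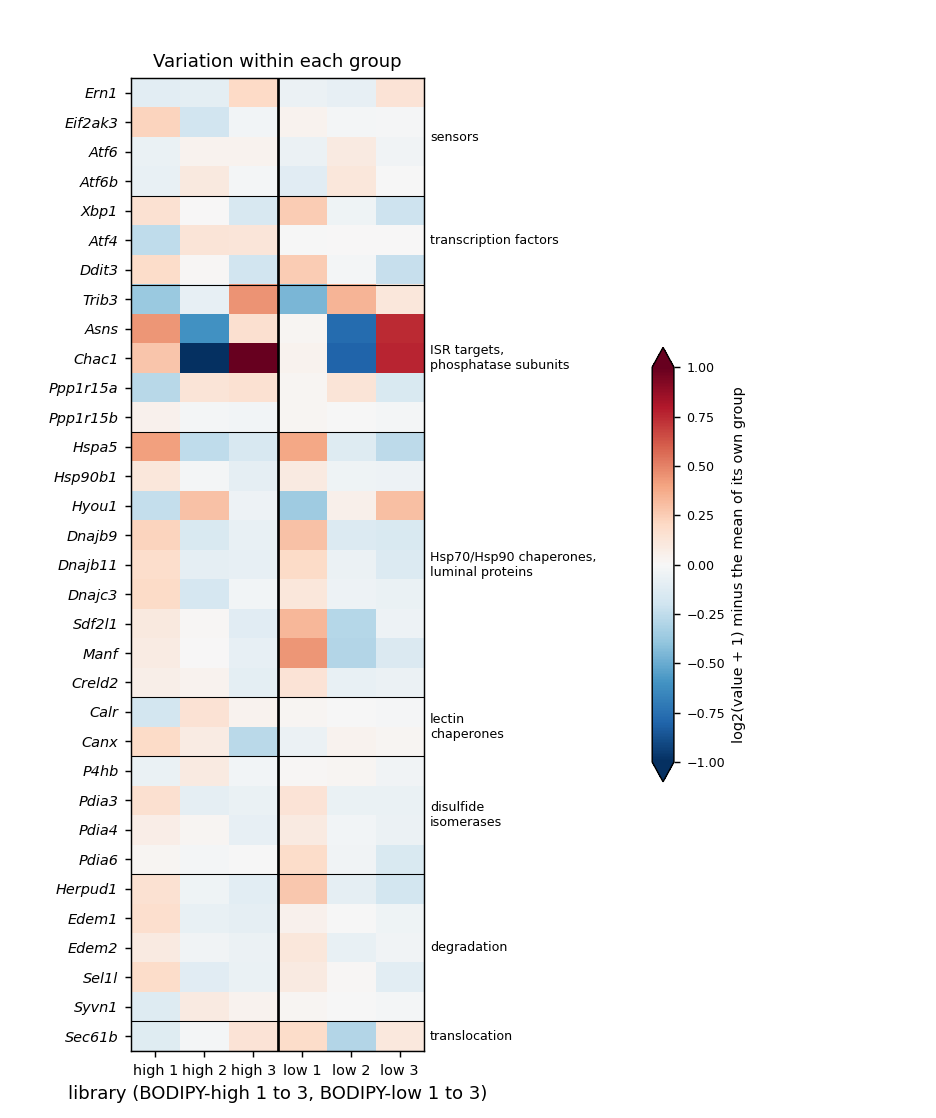
Deviation of each library from the mean of its own group, in log2(value + 1), for the 33 genes by role, with BODIPY-high libraries left and BODIPY-low libraries right of the black line. Columns for library 1 are red on either side of the line for most chaperone, isomerase and degradation genes and blue for Hyou1, and the strongest colours belong to Asns and Chac1.

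The 10 genes with an ERSE or ERSE-II match, whose sequences are printed above, were compared with the other 19 genes that have a promoter window. Library 1 was the highest of both groups in 7 of these 10, namely Creld2, Dnajb11, Dnajc3, Herpud1, Hsp90b1, Hspa5 and Pdia6, and in 10 of the 19 others. The remaining 3 of the 10 were Calr, Canx and Syvn1. The median log2 fold change between BODIPY-high and BODIPY-low was -0.098 over the 10 and -0.14 over the 19. Neither set held a gene called by limma (0 higher and 0 lower each). Both called genes, Atf6 and Ppp1r15b, are among the 4 without a window (median -0.43). The lack of calls in the 10 and the 19 was thus fixed by which windows were at hand, and does not compare the sets. In the same libraries, microglia markers were highest in library 1 of each group, at 5.82% of reads in BODIPY-high and 6.87% in BODIPY-low, and so were astrocyte markers, at 0.0348% in BODIPY-high and 0.0283% in BODIPY-low. By contrast, immediate early and heat shock genes were lowest in library 1 of each group, at 0.343% of reads in BODIPY-high and 0.451% in BODIPY-low. Neutrophil markers were at 0.00182% in BODIPY-high library 1, between the other BODIPY-high values, and at 0.292% in BODIPY-low library 1, the highest of all. The part of these in the pattern was not tested. Asns, Chac1 and Eif2ak3 had their lowest value in library 2 of both groups, and the share of all tested genes with this order was not counted.

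Further ER genes, in 10 lists by function that share no gene with the 33, showed scattered calls in both directions. Of 180 tested genes 9 rose and 7 fell, against 9.79% and 3.52% of all tested genes, and their median log2 fold change was -0.039. By limma none of these lists had calls in more than 3 genes. Of the same 180 genes edgeR called 8 higher and 7 lower, against 9.48% and 3.33% of all tested genes. DESeq2 called 12 higher and 13 lower, against 11.4% and 5.23%. Of the 16 limma calls, Serpinh1, Slc7a5 and Atp2a3 were kept under each of the 16 alternative settings, and the other 13 were lost under at least 1, for 12 of them only with a library left out. Among these 12, Fkbp10 was not tested, and so had no call, under the filter of a mean of at least 50.

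Among 17 other oxidoreductases 0 rose and 2 fell, with a median of -0.21 (limma; at an unadjusted p under 0.05, 0 higher and 7 lower; edgeR 0 and 2, DESeq2 0 and 3). The fallen genes were the transmembrane thioredoxins Tmx3, with 3616, 3170.2 and 3536 normalised reads in BODIPY-high and 4099, 4697 and 5352 in BODIPY-low libraries 1, 2 and 3, and Tmx4 (log2 fold changes -0.45 and -0.36). Their groups did not overlap, but without BODIPY-high replicate 2 or BODIPY-low replicate 2 or 3 both calls were lost, and that of Tmx3 also without BODIPY-high replicate 3 (limma adjusted p up to 0.107). Of 23 other co-chaperones and prolyl isomerases 2 rose and 1 fell. Serpinh1, the collagen chaperone Hsp47, had 397, 365 and 485 normalised reads in BODIPY-high libraries 1, 2 and 3, against 48.0, 22.4 and 31.5 in BODIPY-low libraries 1, 2 and 3 (log2 fold change 3.63, SE 0.31, limma adjusted p = 5.79e-05). Fkbp10, a prolyl isomerase that also acts on collagen, had 75 reads in BODIPY-high and 1 in BODIPY-low libraries (ratio 67.7, 95% exact interval 11.8 to 2709 for counting error). It passed the filter on low values only through the BODIPY-high libraries, so its call is no support for a rise of the list, and without BODIPY-high replicate 1 its limma adjusted p was 0.0503. Choroid plexus markers, with a median log2 fold change of 4.60, rose in the same libraries, and their part in these rises was not tested. Hspa13, an Hsp70 relative of microsomes, fell (log2 fold change -0.39), a call that held only without BODIPY-high replicate 1 when a library was left out (limma adjusted p up to 0.111).

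Of 26 other degradation genes 1 rose and 1 fell. Both encode ubiquitin ligases of the ER membrane, Rnf5 with 1759.6 ± 115 normalised reads in BODIPY-high and 1272 ± 85.7 in BODIPY-low libraries, and Rnf139 with 3913 ± 188 in BODIPY-high and 5266 ± 382 in BODIPY-low libraries (SD, n = 3 each). Their log2 fold changes were 0.47 and -0.43, and both calls were lost without BODIPY-low replicate 2, Rnf5 also without BODIPY-low replicate 3 and Rnf139 without BODIPY-high replicate 3 (limma adjusted p up to 0.0744). Of 23 genes of the translocon, signal peptidase and signal recognition particle 1 rose, Srp14 (1415 ± 19.1 in BODIPY-high and 1036 ± 182 in BODIPY-low libraries), and edgeR did not call it. Its call held only without BODIPY-low replicate 1 when a library was left out (limma adjusted p up to 0.187). The median of this list was -0.081, with 1 gene higher and 6 lower at an unadjusted limma p under 0.05. Here edgeR called 0 genes, and DESeq2 called 1 higher and 3 lower. Of 17 genes of N-glycosylation 0 were called by limma or edgeR and 2, both lower, by DESeq2 (1 higher and 3 lower at an unadjusted limma p under 0.05).

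Of 34 further genes of the integrated stress response 2 rose and 1 fell. Phgdh and Psat1, enzymes of serine synthesis that ATF4 is known to induce, rose. Phgdh had 6429, 7748 and 7729.9 normalised reads in BODIPY-high libraries 1, 2 and 3, against 4921, 5553 and 5455 in BODIPY-low libraries 1, 2 and 3. Psat1 had 2638, 2360.4 and 2055 in BODIPY-high and 1586, 1545 and 1763 in BODIPY-low libraries 1, 2 and 3. Slc7a5, a transporter of large neutral amino acids and another ATF4 target, fell, with 1783, 2166 and 2047 in BODIPY-high and 3096, 2761 and 3100.2 in BODIPY-low libraries 1, 2 and 3. None of these 3 overlapped between groups, and the log2 fold changes were 0.46, 0.52 and -0.58 (limma adjusted p = 0.0115, 0.0134 and 0.00458). The call of Phgdh was lost without BODIPY-high replicate 3 and that of Psat1 without BODIPY-low replicate 2 (limma adjusted p = 0.0634 and 0.0586). With Asns at -1.05, known targets of ATF4 had values on both sides of 0.

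Of 14 genes of IRE1 and ATF6 processing 1 rose, Bloc1s1, whose message IRE1 is known to cut. It averaged 522 ± 63.8 normalised reads in BODIPY-high and 303 ± 90.4 in BODIPY-low libraries (SD, n = 3 each, log2 fold change 0.82, limma adjusted p = 0.0324), and the call was lost without replicate 2 or 3 of either group (limma adjusted p up to 0.118). Of 10 genes of the ER calcium store 1 rose and 1 fell. Atp2a3, a calcium pump of the ER membrane, had 272, 311 and 342 normalised reads in BODIPY-high libraries 1, 2 and 3, against 704, 650.0 and 680.2 in BODIPY-low libraries 1, 2 and 3. Every BODIPY-high value was less than the BODIPY-low ones (log2 fold change -1.14, SE 0.15, limma adjusted p = 7.70e-04), and neutrophil markers, lower in these libraries too, had a median log2 fold change of -5.88, whose part was not tested. Itpr1, a calcium release channel, averaged 359 ± 110.4 in BODIPY-high and 172 ± 27.4 in BODIPY-low libraries, a call lost without BODIPY-high replicate 1 or 3 or BODIPY-low replicate 2 or 3 (limma adjusted p up to 0.0841). Of 8 ER stress apoptosis genes 0 were called by limma, edgeR or DESeq2 (0 at an unadjusted limma p under 0.05). Of 8 ER-phagy receptors, Calcoco1 rose and Fam134c fell (log2 fold changes 0.47 and -0.47). Both were lost without BODIPY-high replicate 3 or BODIPY-low replicate 3, Calcoco1 also without BODIPY-low replicate 1 and Fam134c without BODIPY-low replicate 2 (limma adjusted p up to 0.102).

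**Figure D5:**
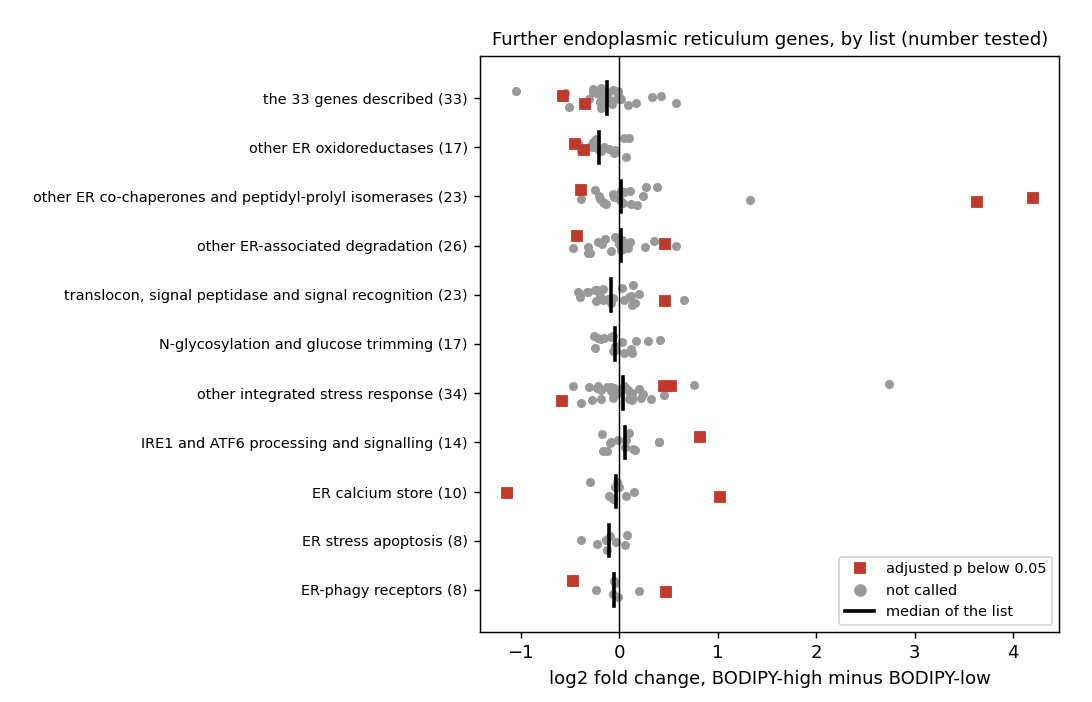
Log2 fold change (BODIPY-high minus BODIPY-low, limma) of the 33 genes in the top row and of 10 further lists of ER genes below, a point per tested gene, squares for an adjusted p below 0.05 and a bar at each median. Medians lie between -0.21 and 0.063, and the points furthest right are Fkbp10 and Serpinh1.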

How the data were processed

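RNA was sequenced from BODIPY-high and BODIPY-low microglia, 3 libraries each. Per the series' design text and the submitters' processing notes, the authors used FastQC 0.11.4, STAR 2.5.3a with its gene counting on mm10 (mm9 is also listed) and DESeq2. Annotation and strand setting: not given in the sources used here. The kits named in the labels' protocols do not mark strand. The values deposited by the authors are a signal: counts scaled by a size factor for each library. Undoing that scaling gave whole reads for 100% of values (tolerance 0.01 read).

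Values were tested as log2(value + 1) by limma 3.58.1 in R 4.3.3, with a variance trend, over 12821 genes whose mean reached 10, with two-sided p-values, Benjamini-Hochberg adjustment over all of them and calls below 0.05. The test was checked on simulated data. edgeR 4.0.16 and DESeq2 1.42.0 on recovered reads, other pseudocounts, filters and scalings, a replicate block and each library left out were alternatives. Exact permutation tests used scipy 1.17.1. Exon lengths and overlaps came from GENCODE M21 (GRCm38), which matched 96.0% of symbols. Intervals on reads cover counting error only, since amplified reads are not independent molecules. Every one of the 33 genes is named, and of further lists every called gene up to 6. The 2 highest genes of each marker list are named, except 1 that is not reported here. The genes and lists were chosen with earlier results of these data known.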

Additional observations from a re-analysis of the deposited data

How the results depend on the processing

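Of the 33 genes, 6 changed their call under at least 1 of 16 alternative settings (Ern1, Asns, Hyou1, Edem1, Syvn1 and Atf6), and 0 were called higher under any of them. The number of lower genes was 2 with limma, 5 with DESeq2 (Ern1, Hyou1, Atf6, Syvn1 and Ppp1r15b) and 6 in a fit with a replicate block, which added Ern1, Asns, Hyou1 and Edem1, and it ranged from 1 to 3 with a library left out, with 1 without BODIPY-high replicate 3 and 1 without BODIPY-low replicate 3. Over all tested genes the block gave 760 lower calls against 451. With a library left out, higher calls over all tested genes ranged from 689 to 1295 and lower calls from 151 to 523, with 689 higher and 219 lower without BODIPY-high replicate 3, 180 lower without BODIPY-low replicate 2 and 151 lower without BODIPY-low replicate 3. The cause was not tested.

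Same-numbered libraries deviated together with correlations of 0.110, 0.144 and 0.0728 for numbers 1, 2 and 3 over 12821 genes, so not every pair passed 0.1 and the numbers were not taken as pairs. Each library did correlate best with its own number, a hint from the data and not from the design. Fold changes of 11 uncalled genes of the set turned sign under some setting. Those of Creld2 were -0.011, -0.0070, -0.0078 and -0.0013 with the same total per library, TMM scaling, edgeR and DESeq2, and Dnajc3 was 0.0021 with DESeq2. With a library left out, log2 fold changes ranged from -0.038 to 0.069 for Creld2, -0.099 to 0.079 for Dnajc3, -0.28 to 0.12 for Hspa5, -0.086 to 0.062 for Pdia3, -0.086 to 0.084 for Pdia6, -0.22 to 0.15 for Manf, -0.050 to 0.26 for Sdf2l1, -0.16 to 0.0023 for Calr, -0.23 to 0.0039 for Canx, -0.093 to 0.12 for Eif2ak3, -0.14 to 1.14 for Chac1 and -0.20 to 0.69 for Grn. Low reads limit Chac1 and Trib3, which averaged 17.8 and 49.3 normalised reads in BODIPY-high libraries.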
